A study of Homo sapiens with 17 samples.

Results

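The measurements described here are the levels of 10 transcription factor genes of the natural killer (NK) lineage, TBX21, EOMES, RUNX3, ETS1, ID2, NFIL3, TOX, GATA3, PRDM1 and ZEB2, in NKYS, a human cell line derived from an NK/T-cell lymphoma. They were taken by name from 18377 genes that had a probe set with 1 annotated gene symbol. Where a gene had more than 1 such probe set, the probe set with the highest mean stood for it. All 10 genes were found, ZEB2 alone had 2 probe sets, and all 10 passed the filter on low signal, which left 14466 genes on the siRNA arrays and 14410 on the plasmid arrays.

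All cells were grown with interleukin-2 at 100 IU/mL and electroporated before RNA was extracted, and 17 arrays were made. In the JAK3 arm, 2 arrays carried JAK3 siRNA and 2 carried a control siRNA. In the EZH2 arm, 2 arrays carried EZH2 siRNA and 2 carried a control siRNA, and the titles tie each control to its own siRNA array, which gives pair 1 and pair 2. A further 6 arrays carried a full-length EZH2 plasmid (titled Y244D, Y244A or WT, 2 of each), 1 carried an EZH2 plasmid without the SET domain and 2 carried an empty vector. The titles number 2 sets of plasmid arrays. The WT array of set 2 has no number in its title and was placed there by its field code, and the full-length arrays of set 2 carry titles and transfection fields that name different constructs. For that reason the 6 full-length arrays were tested together, and the alleles are given array by array. All arrays come from a single cell line, no label states that the arrays within a group were separate cultures, and p-values therefore measure the spread between arrays, which may be technical.

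NK cells arise from lymphoid progenitors under a small network of transcription factors. ETS1, NFIL3, TOX and ID2 are known from mouse studies to act early, when the progenitor commits to the innate lymphoid lineage, and ID2 does so by binding E proteins and keeping them from DNA. The T-box factors T-bet (TBX21) and EOMES, with the Runt factor RUNX3, then switch on receptors, granule proteins and interferon gamma. GATA3, PRDM1 (Blimp-1) and ZEB2 shape later maturation, and PRDM1 is known as a tumour suppressor gene in NK-cell lymphoma. Interleukin-2 reaches the nucleus through JAK3 and STAT5, and EZH2 is the histone H3 methyltransferase of the Polycomb group, which acts mostly at promoters rich in CpG.

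Since EZH2 is known to act at CpG-rich promoters, the 250 bases before the start of transcription are printed for 2 factors on which the EZH2 arm turns. These are ZEB2, the single member that passed a test, and ID2, whose pairs went opposite ways. They are from RefSeq (GRCh38.p14), 5′ to 3′ on the strand of the gene, with each CpG in capitals. The ZEB2 window is chr2:144520120-144520369 on the minus strand and the ID2 window is chr2:8681806-8682055 on the plus strand.
ZEB2: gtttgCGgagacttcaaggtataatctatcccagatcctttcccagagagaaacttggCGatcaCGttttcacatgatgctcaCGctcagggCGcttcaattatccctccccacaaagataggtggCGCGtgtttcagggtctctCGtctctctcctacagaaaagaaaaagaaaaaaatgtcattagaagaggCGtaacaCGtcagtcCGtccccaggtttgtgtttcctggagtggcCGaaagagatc
ID2: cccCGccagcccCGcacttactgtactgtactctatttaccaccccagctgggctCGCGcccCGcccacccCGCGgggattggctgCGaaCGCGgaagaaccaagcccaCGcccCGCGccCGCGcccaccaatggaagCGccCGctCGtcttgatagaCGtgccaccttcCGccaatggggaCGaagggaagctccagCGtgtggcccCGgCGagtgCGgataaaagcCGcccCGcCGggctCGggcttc

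The share of G and C bases was 48% in the ZEB2 window, below the median of 58% over 35114 promoters of the same length, and 69.2% in the ID2 window. The ZEB2 window held 12 CpG and had a CpG observed over expected ratio of 0.834. The ID2 window held 29 and had a ratio of 0.997, against a median of 0.558 over the same 35114 promoters. Used here were 16 promoters of 8 members, with ETS1 and TOX not among them. The ratio was above that median for 11 of the 16, and 5 of the 16 exceeded ZEB2, among them both promoters of NFIL3 (1.06 each), which was not called, so that the ratio does not set ZEB2 apart. The STAT motif TTCNNNGAA, searched on both strands, was in 0 of the 16 promoters and in 6.57% of all 35114. The E-box CAGGTG, searched on both strands as a sequence that E proteins and ZEB factors are known to bind, was in 3 of the 16, one each of EOMES, RUNX3 and PRDM1, and in 17.5% of all. Neither motif contains the other, and such matches describe the windows only.

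The targeted genes were measured first as a check of the labels. JAK3 had 138 and 137 units of linear signal intensity with JAK3 siRNA and 322 and 326 with its control siRNA. EZH2 had 501 and 489 units with EZH2 siRNA and 926 and 691 with its control siRNA. On the 6 full-length plasmid arrays EZH2 ranged from 803 to 2221 units with a median of 951, and it had 1471 units with the SET deletion and 259 and 349 units with the vector. Of the NK markers fixed for the check, perforin, PRF1, had 2210 to 3633 units and granzyme B, GZMB, had 2835 to 5473 units on the siRNA arrays. GNLY, at 46.4 to 51.8 units, was the only 1 of 10 NK markers under the median signal of the arrays. Of the epithelial and fibroblast markers 6 of 10 also lay above that median, as did 3 of the 6 measured B-cell markers. Signal above the median therefore does not by itself show expression. The T-cell markers CD3D, CD3E and CD3G lay between 30.1 and 35.7 units, about the lower quartile of all probe sets (32.4 to 32.9 units), but 3 of the 8 T-cell markers lay above the median signal, among them CD4 (311 to 420 units) and TRAT1 (140 to 263 units). Log2 signal had an interquartile range between 1.79 and 2.18 on plasmid arrays and between 2.27 and 2.33 on siRNA arrays.

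**Figure D1:**
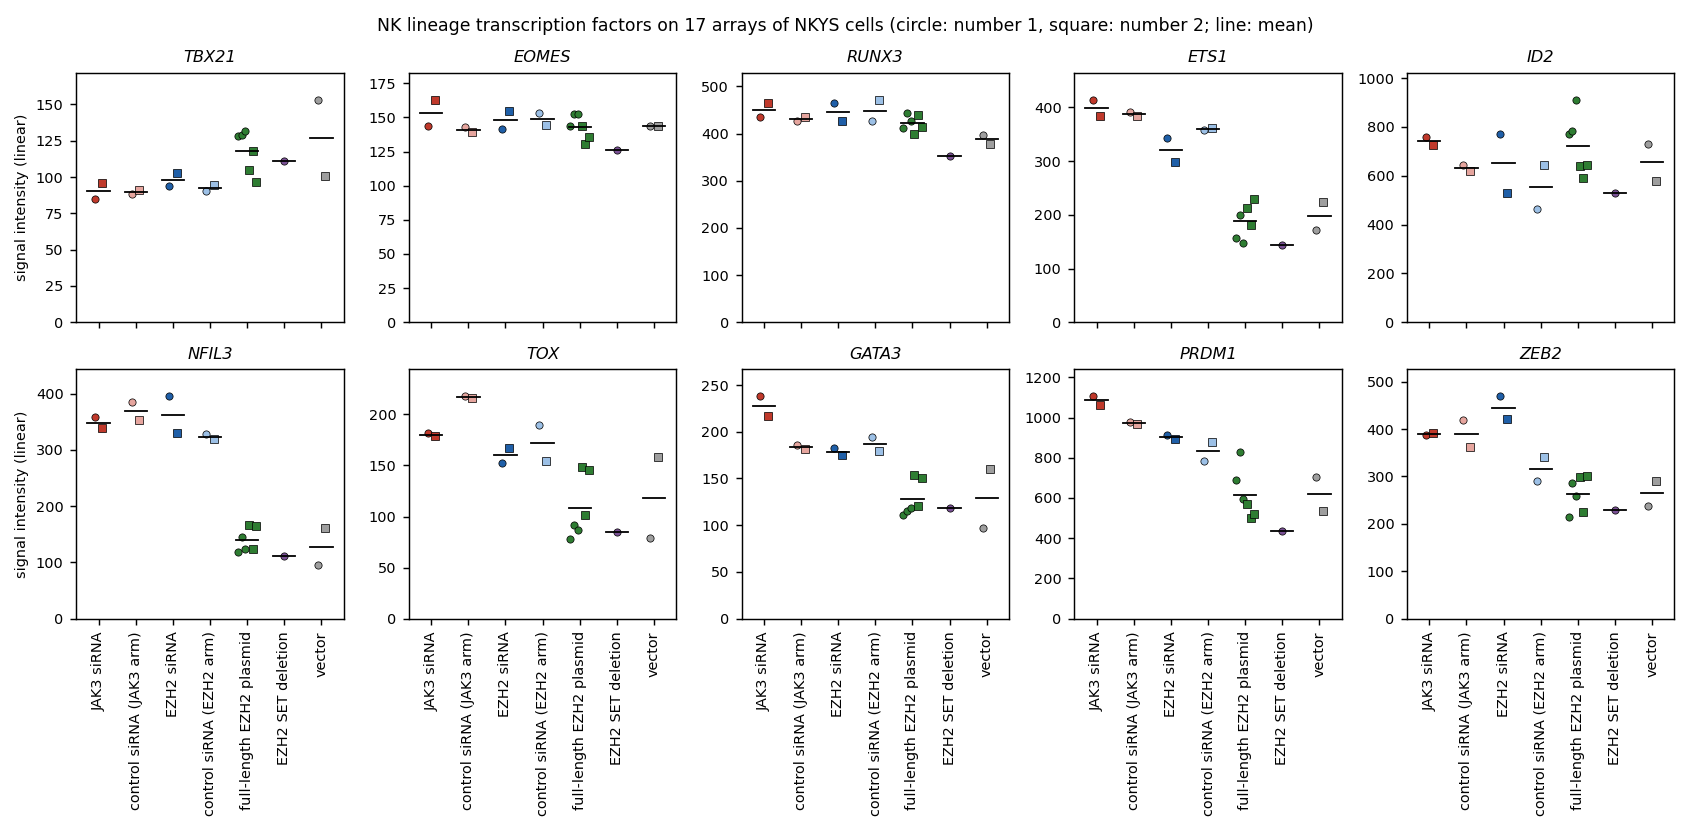
Signal intensity (linear, 1 panel per gene, vertical axis from 0) of the 10 factors on all 17 arrays, by group; circles are arrays numbered 1, squares arrays numbered 2, and each line is a group mean. NFIL3, ETS1 and GATA3 lie lower on all 9 plasmid arrays than on any siRNA array, and ZEB2 is highest on the 2 EZH2 siRNA arrays.

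All 10 factors gave signal well above the low end of the arrays in NKYS cells. TBX21 had the lowest signal on the siRNA arrays, from 84.9 to 102 units, and PRDM1 reached 1106 units, but probe sets differ in how brightly they bind, so that these levels do not rank the genes. On the same arrays COL1A1 and KRT18, of the epithelial and fibroblast list, had 85.7 to 102 and 120 to 172 units, while 3 of that list lay below the lower quartile. The signals of TBX21 and EOMES (139 to 163 units) therefore do not by themselves show expression. In bulk RNA, fewer cells that express a gene and less RNA per cell cannot be told apart. Across the 8 siRNA arrays RUNX3 (426 to 471 units) and EOMES (139 to 163 units) varied little. ID2 (462 to 771 units) and ZEB2 (289 to 469 units) varied most. For EOMES 5 of the 17 arrays, and for RUNX3 4 arrays, carried exactly the same deposited value, which also occurred on at least 4 arrays for 4.12% of all probe sets. The source of these ties was not tested.

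After JAK3 siRNA none of the 10 factors passed the test, although GATA3 came closest. Called means an adjusted p under 0.05 over all genes tested (limma, Benjamini-Hochberg). By this rule 0 of 10 members were called, against 1.38% of all 14466 genes, and at an unadjusted p under 0.05 there were 2 members and 1794 genes. Values lay above 0 for 7 members and below 0 for 3, with a median log2 change of 0.05 against -0.01 over all genes. The groups did not overlap for 6 of 10 members, against 48.3% of all genes.

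GATA3, a zinc finger factor best known from T helper and group 2 innate lymphoid cells, had 238 and 217 units with JAK3 siRNA, against 186 and 182 units with the control siRNA. Both JAK3 siRNA arrays lay above both controls and above the 4 arrays of the EZH2 arm (175 to 194 units). The log2 change was 0.31 (SE 0.074, limma, adjusted p = 0.0766), a fold of 1.24, which did not pass. TOX, an HMG-box factor, had 182 and 179 units with JAK3 siRNA, against 218 and 216 units with the control siRNA. Both JAK3 siRNA arrays lay below their controls, but the EZH2 arm held values from 153 to 189 units without any JAK3 siRNA. Its log2 change was -0.27 (SE 0.091, limma, adjusted p = 0.221). Both genes passed when any 1 of the 4 arrays of the EZH2 arm was left out of the fit (adjusted p = 0.0355 for GATA3 and 0.0361 for TOX), which leaves only the JAK3 arm to set the spread, and in a fit of the 4 JAK3 arm arrays alone. Without 1 of the JAK3 arm arrays neither passed (adjusted p from 0.213 to 0.514 for GATA3 and from 0.558 to 0.761 for TOX).

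PRDM1, a zinc finger repressor, had 1106 and 1064 units with JAK3 siRNA, against 978 and 966 units with the control siRNA. All 4 values lay above the 4 arrays of the EZH2 arm (785 to 915 units), and the log2 change was 0.16 (SE 0.075, limma, adjusted p = 0.422). ID2 had 758 and 727 units with JAK3 siRNA, against 645 and 620 units with the control siRNA, groups that did not overlap. Its log2 change of 0.23 (SE 0.161, limma, adjusted p = 0.631) had the largest standard error of the 10 members in a fit that takes its spread from both arms.

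The T-box and Runt factors stayed close to their controls in the JAK3 arm. TBX21 had 84.9 and 95.9 units with JAK3 siRNA, against 88.6 and 91.0 units with the control siRNA, and its controls lay between the JAK3 siRNA arrays. EOMES, the other T-box factor, had 143 and 163 units against 143 and 139 units with the control siRNA (log2 change 0.12, SE 0.084, limma, adjusted p = 0.642). RUNX3 had 436 and 464 units against 426 and 436 units. Their groups do not overlap by the deposited decimals, although array 1 with JAK3 siRNA lies next to a control in both genes. ETS1 (log2 change 0.04), NFIL3 (-0.08) and ZEB2 (-0.0001) had overlapping groups and adjusted p values from 0.751 to 1.

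**Figure D2:**
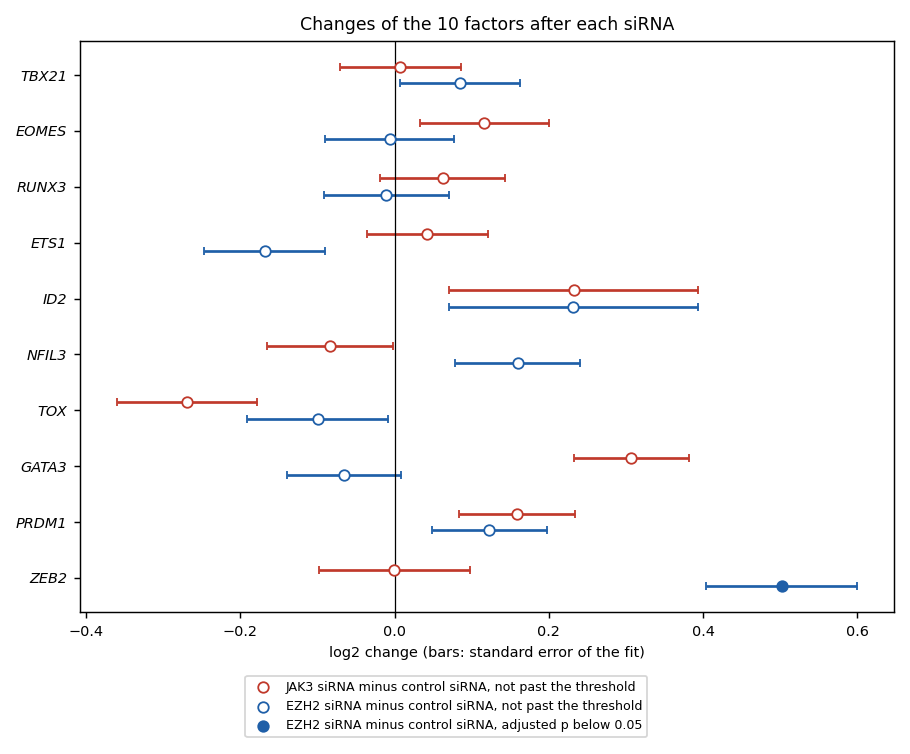
Log2 change of each factor (horizontal axis) after JAK3 siRNA (red) and EZH2 siRNA (blue), each against its control siRNA, with the standard error of the limma fit as bars; the filled point passed an adjusted p of 0.05. ZEB2 after EZH2 siRNA, at 0.50, is the only filled point, and GATA3 after JAK3 siRNA stands at 0.31.

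After EZH2 siRNA ZEB2 was the only member called. It is a zinc finger repressor known from mouse studies to act with T-bet in the last steps of NK maturation. Of the 10 members 1 was called higher and 0 lower, against 0.940% of all 14466 genes called in either direction and 0.373% called higher. Values lay above 0 for 5 members and below 0 for 5, with a median log2 change of 0.04 against -0.004 over all genes. Both pairs went the same way for 6 of 10 members, against 51.8% of all genes, and the groups did not overlap for 4 of 10, against 37.5%.

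ZEB2 had 469 and 421 units with EZH2 siRNA, against 289 and 341 units with the paired control siRNA. Both EZH2 siRNA arrays lay above all 6 other siRNA arrays, but narrowly so, since a JAK3 arm control reached 418 units. The log2 change within pairs was 0.50 (SE 0.098, limma, adjusted p = 0.0444), a 1.42-fold rise. It was 0.70 in pair 1 and 0.31 in pair 2, so that pair 1 held the larger part.

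The ZEB2 call was close to the threshold. It was lost without control or siRNA array 1 of the EZH2 arm (adjusted p = 0.355) and without any 1 of the 4 JAK3 arm arrays (adjusted p from 0.0786 to 0.0979). It was also lost without the pairs as a block (0.0626), after quantile normalization (0.0518), after centring each array on its median (0.0520) and with no filter on low signal (0.144). With only pair 1 the adjusted p was 0.0048, but that fit sets 1 array against 1 and takes its spread from the JAK3 arm alone. In a fit of the 4 EZH2 arm arrays alone the adjusted p was 0.00296 (limma), although the standard error was larger (0.115 against 0.098). With so few arrays limma takes the spread in that fit mostly from other genes, so the smaller adjusted p is not firmer support. The direction of ZEB2 was the same in each of these fits.

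The other ZEB2 probe set gave no rise that passed. It is annotated with 1 transcript accession, against 10 for the brighter probe set, and had 76.9 and 54.1 units with EZH2 siRNA, against 62.0 and 69.5 units with the control siRNA. Its difference was 0.31 in pair 1 and -0.36 in pair 2, so that the groups overlap. In its place the fitted log2 change was -0.02 (SE 0.137, limma, adjusted p = 0.967), and with the mean of both probe sets it was 0.24 (limma, adjusted p = 0.35). This probe set was examined after the values of the first were known.

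Summed markers also moved in this arm. The 10 NK markers summed to 12104 and 11685 units with EZH2 siRNA and to 7760 and 11094 units with the control siRNA. Control array 1 was the lowest of the 8 siRNA arrays for the NK markers and also for ZEB2, ID2 and PRDM1. The 8 monocyte markers summed to 501 and 531 units against 454 and 482 units with the control siRNA, with LYZ at 24.1 to 26.7 units and CD163 and S100A8 averaging 28.1 and 30.3 units, below the lower quartile of the arrays. Another 2 of these 8 lay above the median signal, and CSF1R, at 148 to 240 units, had the highest signal of the list. The T-cell markers summed to 866 and 770 units against 812 and 772 units, and the B-cell markers to 420 and 471 units against 443 and 439 units. The epithelial and fibroblast markers summed to 662 and 653 units against 634 and 623 units. The part of these shifts in the ZEB2 result was not tested.

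ID2 showed the widest gap between pairs. It had 771 and 532 units with EZH2 siRNA, against 462 and 643 units with the control siRNA. The difference was 0.74 in pair 1 and -0.28 in pair 2, the groups overlapped, and the mean change of 0.23 (SE 0.161, limma, adjusted p = 0.563) did not pass. With 1 pair left, the EZH2 arm is 1 array against 1 and has no spread of its own, so that the p rests on the spread of the JAK3 arm. On that basis ID2 had an adjusted p of 0.00131 with pair 1 alone and 0.322 with pair 2 alone (limma).

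TOX, EOMES and RUNX3 also had pairs of opposite sign. TOX had 153 and 167 units with EZH2 siRNA and 189 and 155 units with the control siRNA, with -0.31 in pair 1 and 0.11 in pair 2. The change was -0.10 with both pairs (limma, adjusted p = 0.701). With pair 1 alone, again on the spread of the JAK3 arm only, the adjusted p was 0.0419. EOMES had -0.11 and 0.10 and RUNX3 had 0.12 and -0.15 in pairs 1 and 2, and their fitted changes were both -0.01.

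Among members with the same sign in both pairs, ETS1 had 343 and 298 units with EZH2 siRNA, against 357 and 362 units with the control siRNA. All 4 values lay below or near the JAK3 arm (383 to 414 units), and the log2 change was -0.17 (SE 0.078, limma, adjusted p = 0.328). NFIL3, a basic leucine zipper factor, had 396 and 330 units with EZH2 siRNA against 328 and 320 units with the control siRNA, and the change was 0.16 on the log2 scale (SE 0.081, limma, adjusted p = 0.376). PRDM1 had 915 and 893 units against 785 and 878 units (0.12, adjusted p = 0.481). These 3 groups did not overlap. TBX21 (0.08) and GATA3 (-0.07) overlapped with their controls, with adjusted p values of 0.704 and 0.778.

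**Figure D3:**
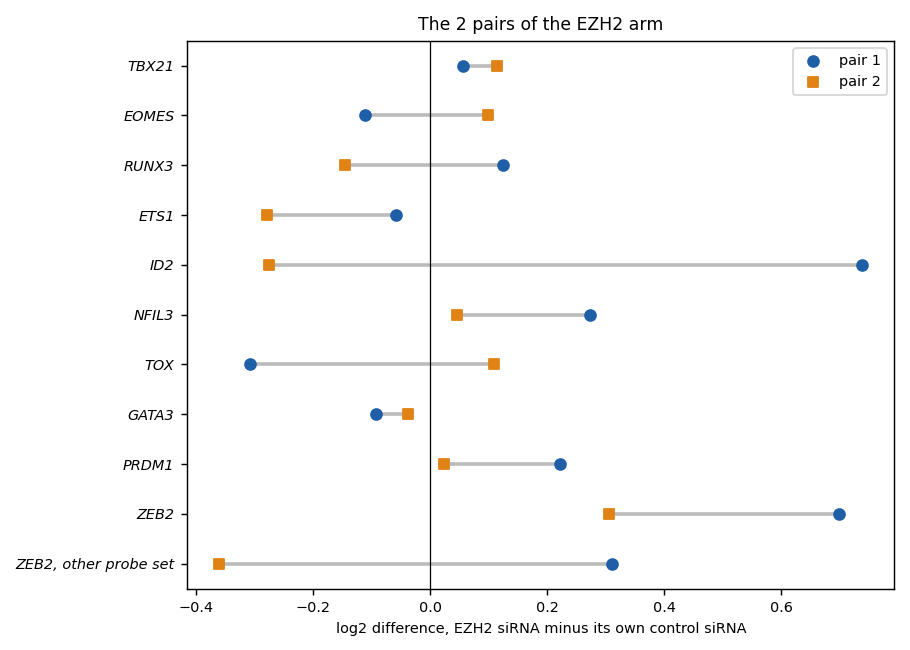
Log2 difference between each EZH2 siRNA array and its own control siRNA (horizontal axis) for the 10 factors and for the other ZEB2 probe set; circles are pair 1, squares pair 2, and a grey bar joins them. ID2 spans 0.74 to -0.28, while ZEB2 is above 0 in both pairs, at 0.70 and 0.31.

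Over the 8 siRNA arrays, with the mean of each arm removed, the genes whose pattern was most like that of ZEB2 were SMPD1, the acid sphingomyelinase gene (Pearson r = 0.980), CHCHD6 (r = 0.975) and NUCB1 (r = 0.975). These are the top 3 of 14466 genes by this measure and describe 8 arrays that share 2 arms. After EZH2 siRNA SMPD1 had a log2 change of 0.22, CHCHD6 0.14 and NUCB1 0.27, none of which passed.

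The difference between the effects of JAK3 siRNA and EZH2 siRNA was tested for each member, and no member passed. The count was 0 of 10, against 0.366% of all genes, with 2 members and 1177 genes at an unadjusted p under 0.05 (limma). ZEB2 was at -0.50 (SE 0.139, limma, adjusted p = 0.225), from changes of -0.0001 after JAK3 siRNA and 0.50 after EZH2 siRNA. GATA3 was at 0.37 (SE 0.105, limma, adjusted p = 0.238), from changes of 0.31 after JAK3 siRNA and -0.07 after EZH2 siRNA. ZEB2 is therefore not shown to respond differently in the 2 arms, although it passed in only 1 of them. ZEB2 (-0.70, adjusted p = 0.0275) and ID2 (-0.51, adjusted p = 0.0419) passed this test when EZH2 pair 2 was left out, where the EZH2 effect is a single array difference and the spread is that of the JAK3 arm alone. NFIL3 (-0.24, adjusted p = 0.63) and ETS1 (0.21, adjusted p = 0.678) had opposite signs in the 2 arms, and the other 6 members had adjusted p values from 0.824 to 0.999.

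The control siRNA arrays of the 2 arms did not share the same levels. TOX had 218 and 216 units in the JAK3 arm controls and 189 and 155 units in the EZH2 arm controls, a log2 difference of 0.34 that was larger than in 97.6% of genes. For ZEB2 (418 and 362 units against 289 and 341 units) this difference was 0.31, for PRDM1 0.23 and for ID2 0.21. These differences are of the size of the changes within the arms, and the arm cannot be told apart from anything else that differed between these arrays.

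With full-length EZH2 plasmids none of the 10 factors passed the test. By limma 0 of 10 members and 0% of all 14410 genes were called, and 0 members and 10 genes had an unadjusted p under 0.05. The log2 changes ran from -0.08 to 0.17, with a median of -0.007 against 0.01 over all genes. The standard errors ran from 0.124 for RUNX3 to 0.317 for TOX. EZH2 itself, carried by these plasmids, had a log2 change of 1.85 (SE 0.347, limma, unadjusted p = 0.000348) and was not called either. A member that did not pass in this fit is therefore not shown to be unchanged.

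RUNX3 was the only member whose groups did not overlap, against 0.763% of all genes. The 6 full-length arrays ranged from 399 to 444 units with a median of 420, against 398 and 378 units with the vector. The lowest full-length array is next to vector array 1, and the log2 change was 0.12 (SE 0.124, limma, adjusted p = 1). Within set 1 it was 0.10 and within set 2 it was 0.14.

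GATA3 went opposite ways in the 2 sets. On the full-length arrays titled Y244D, Y244A and WT it had 111, 115 and 118 units in set 1, against 97.0 units with vector 1. In set 2 it had 154, 120 and 150 units, against 160 units with vector 2. All 3 arrays of set 1 lay above their vector (mean log2 difference 0.24) and all 3 of set 2 lay below theirs (-0.19).

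TOX and NFIL3 were, like GATA3, higher with vector 2 than with vector 1. TOX had 77.7, 91.7 and 87.2 units in set 1 against 78.5 units with vector 1, and 149, 102 and 145 units in set 2 against 159 units with vector 2. NFIL3 had 118, 146 and 123 units against 94.95 units in set 1, and 167, 124 and 164 units against 160 units in set 2. The vectors alone differed by 1.02 for TOX, 0.76 for NFIL3 and 0.72 for GATA3 on the log2 scale (vector 2 minus vector 1), more than the mean difference from the vector in either set for these 3 genes. The array titled Y244A of set 2 had the lowest TOX, NFIL3 and GATA3 of its set, and its interquartile range of 1.99 was nearer to the set 1 full-length arrays (1.85 to 2.03) than to its own set (2.14 to 2.18).

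TBX21 ran the other way, with 128, 129 and 132 units in set 1 against 153 units with vector 1, and 105, 118 and 96.5 units in set 2 against 101 units with vector 2. Vector array 1 was the highest of all 17 arrays for TBX21, and it was also the array with the smallest interquartile range (1.79) and the highest sum of 10 epithelial and fibroblast markers (1181 units, against 693 units on vector array 2). The part of these in the TBX21 values was not tested. The fitted change was -0.08, and it was -0.38 without vector array 2 and 0.22 without vector array 1 (limma, no call in either fit). Directions also turned with a vector left out for TOX (-0.59 without vector 1, 0.43 without vector 2), NFIL3 (-0.20 and 0.55), GATA3 (-0.34 and 0.39), ETS1 (-0.27 and 0.11), PRDM1 (0.19 and -0.21), ID2 (0.30 and -0.03) and ZEB2 (-0.15 and 0.14).

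The remaining members overlapped with the vector arrays. ID2 ranged from 591 to 911 units with a median of 706 on the full-length arrays, against 730 and 581 units with the vector, and all 6 lay above the vector of their set. PRDM1 ranged from 501 to 828 units, against 705 and 533 units. ZEB2 ranged from 214 to 301 units with a median of 273, against 238 and 290 units, with a fitted change of -0.006 (SE 0.179). ETS1 ranged from 148 to 230 units, against 172 and 224 units, and EOMES ranged from 130 to 153 units, against 143 units on both vector arrays. For EOMES both vector arrays, both arrays titled Y244D and JAK3 siRNA array 1 carried the same deposited value, 143.49 units. Its differences from the vector therefore rest on a repeated value.

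**Figure D4:**
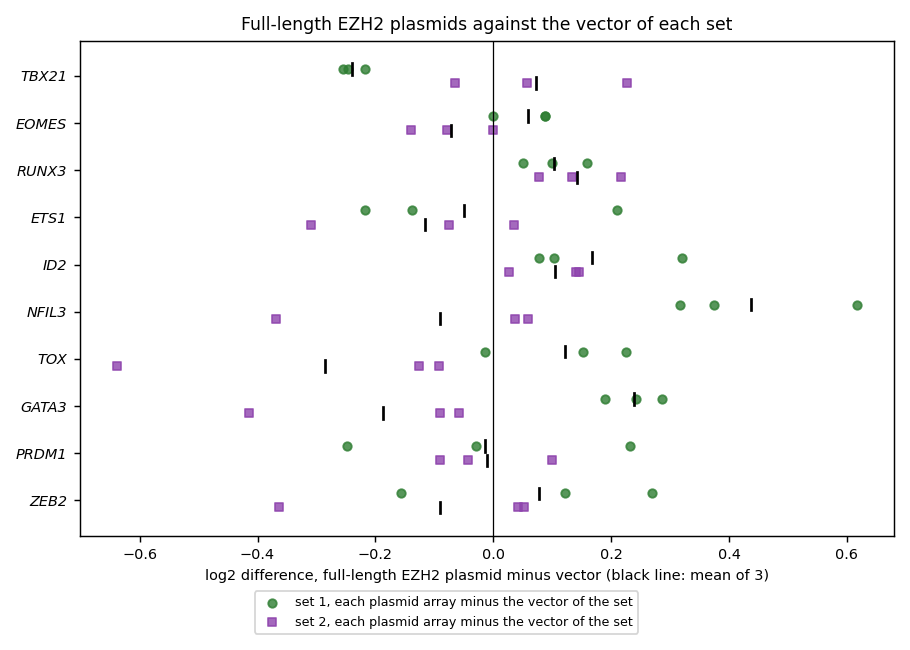
Log2 difference between each full-length EZH2 plasmid array and the vector of its set (horizontal axis), with circles for set 1, squares for set 2 and a black line at the mean of 3 arrays; arrays of a set share 1 vector. GATA3 lies above 0 in set 1 and below 0 in set 2, and RUNX3 and ID2 lie above 0 in both.

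The alleles can be set side by side only in set 1, where title and transfection field do not conflict, with 1 array each and no test. The Y244D array had a log2 difference from its vector of -0.16 for ZEB2 and -0.03 for PRDM1. The Y244A array had 0.27 and 0.23 for these genes, and the WT array had 0.12 and -0.25. NFIL3 was 0.32, 0.62 and 0.37 above the vector with Y244D, Y244A and WT, while EZH2 itself was 3.10, 1.72 and 1.98 above it.

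The array with the SET deletion, which lacks the part of EZH2 that carries the methyltransferase activity, was the lowest of all 17 arrays for EOMES (126 units), RUNX3 (352 units), ETS1 (144 units) and PRDM1 (438 units). Against vectors 1 and 2 its log2 differences were -0.69 and -0.29 for PRDM1, -0.26 and -0.64 for ETS1, -0.18 and -0.10 for RUNX3 and -0.19 for EOMES against each. ID2 (-0.47 and -0.14) and ZEB2 (-0.05 and -0.33) also lay below both vectors, while TBX21, NFIL3, TOX and GATA3 lay between them. The same array had the lowest NK marker sum of all 17 (4323 units, against 5490 and 5339 units with the vectors), and its epithelial and fibroblast markers summed to 964 units, against 1181 and 693 units. The part of these in its values was not tested. This is a single array with no set number, so that no test was made, and its interquartile range was 1.86.

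Several factors had other levels on plasmid arrays than on siRNA arrays. NFIL3 ranged from 94.95 to 167 units on the 9 plasmid arrays, against 320 to 396 units on the 8 siRNA arrays, ETS1 from 144 to 230 units against 298 to 414 units, and GATA3 from 97.0 to 160 units against 175 to 238 units. The kinds of array did not overlap for these 3 of 10 members, against 30.4% of all genes, so that the members' share is that of the background. JAK3 itself had 206 and 262 units with the vector, against 310 to 340 units on the 4 control siRNA arrays, and EZH2 had 259 and 349 units, against 691 to 926 units. Between the vector arrays and the 4 control siRNA arrays the log2 difference was -1.49 for NFIL3, lower than in all but 2.69% of genes, -0.93 for ETS1, -0.79 for TOX, -0.57 for GATA3 and -0.55 for PRDM1. TBX21 was higher (0.45), and EOMES had -0.01. The 10 NK markers summed to 4323 to 7022 units on the plasmid arrays, against 7760 to 12104 units on the siRNA arrays, and the 10 epithelial and fibroblast markers to 693 to 1181 units, against 604 to 662 units. The T-cell markers summed to 579 to 753 units, against 770 to 922 units, and the B-cell and monocyte sums overlapped. The part of these shifts in the members' levels was not tested. The electroporated material differs between these arrays and cannot be told apart from any batch, and no test was made.

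Other lymphoid lineage factors were read from a list of 40 genes, of which 34 were tested. After JAK3 siRNA 3 of these were called higher and 0 lower, against 1.38% of all genes called in either direction. The list was chosen with earlier results of these data known, so setting its count beside that share is no test of the list. The list median was 0.06 against -0.01 over all genes, with 21 of the 34 above 0. BCL6, a repressor, had 197 and 197 units with JAK3 siRNA, against 118 and 101 units with the control siRNA (log2 change 0.85, limma, adjusted p = 0.0298), although an EZH2 arm control reached 192 units. On plasmid arrays BCL6 had 110 units with vector 1 and 709 units with vector 2. SMAD3, which carries transforming growth factor beta signals, had 111 and 110 units against 80.7 and 79.1 units (0.47, limma, adjusted p = 0.00571). Both EZH2 arm controls, at 117 and 132 units, lay above both of these JAK3 siRNA arrays. MYB, a factor of lymphoid progenitors, had 1152 and 1169 units against 888 and 874 units (0.40, adjusted p = 0.013).

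SMAD3 also rose after EZH2 siRNA, with 148 and 176 units against 117 and 132 units with the control siRNA (0.38, limma, adjusted p = 0.041). It was the only 1 of the 34 called, against 0.940% of all genes. MYB was lower after EZH2 siRNA in both pairs, at 927 and 898 units against 1015 and 1023 units. The difference between the arms passed for MYB (0.56, limma, adjusted p = 0.0355) as the only 1 of the 34, against 0.366% of all genes. With full-length plasmids 0 of the 34 passed, against 0% of all genes, and BATF had 0.21, MAF 0.17 and IRF1 0.14.

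The partners and relatives of the members gave no call in any of the 4 comparisons. Of all genes 1.38% were called after JAK3 siRNA, 0.940% after EZH2 siRNA, 0.366% for their difference and 0% with plasmids, so 0 calls is near the background. In the list of E proteins and ID genes, all 6 were tested. All 6 had values above 0 after JAK3 siRNA (median 0.06), against 45.8% of all genes, led by TCF3 at 0.11, TCF4 at 0.09 and ID4 at 0.08. After EZH2 siRNA 5 of 6 were above 0 (median 0.09), against 48.2% of all genes, with ID3 at 0.17, ID1 at 0.13 and ID4 at 0.11. Of 14 paralogs and partners 13 were tested, with medians of 0.04 and 0.03 after JAK3 and EZH2 siRNA. RUNX1, the relative of RUNX3, had 216 and 214 units with JAK3 siRNA against 178 and 176 units (log2 change 0.28, limma, adjusted p = 0.1). After EZH2 siRNA RUNX1 had 200 and 176 units against 166 and 162 units (0.20, limma, adjusted p = 0.201).

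Of 21 NK effector genes known as targets of these factors, 15 were tested on the siRNA arrays. KLRD1, the CD94 chain of NK receptors, fell after JAK3 siRNA, with 137 and 140 units against 193 and 192 units with the control siRNA (-0.47, limma, adjusted p = 0.00991), and the list median was 0.004. KLRD1 had only 90.5 to 105 units on the 4 arrays of the EZH2 arm. After EZH2 siRNA 0 of 15 passed, against 0.940% of all genes, and the list median was 0.08. PRF1 had 3633 and 3010 units with EZH2 siRNA against 2210 and 2587 units (0.47, limma, adjusted p = 0.0501), NKG7, a granule membrane gene, had 0.27 (adjusted p = 0.0894) and IFNG, the interferon gamma gene, had 0.58 (adjusted p = 0.148).

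IFNG had the smallest unadjusted p of this list for the difference between the arms, at -1.12 (SE 0.257, limma, adjusted p = 0.119). It had 153 and 149 units with JAK3 siRNA against 222 and 218 units, and 141 and 72.8 units with EZH2 siRNA against 63.1 and 73.4 units. The JAK3 arm controls were the highest of these 8 arrays for IFNG. With full-length plasmids 0 of 14 tested effector genes passed, against 0% of all genes, with TNFSF10 at 0.38, NCR1 at -0.14 and FASLG at -0.16.

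**Figure D5:**
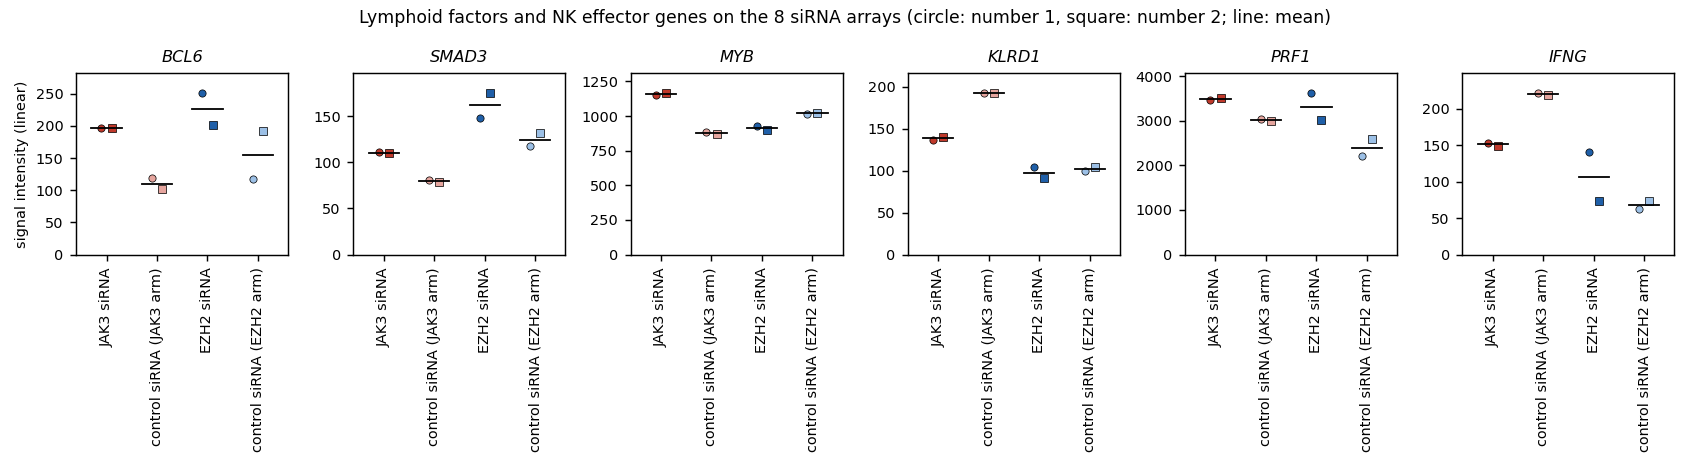
Signal intensity (linear, vertical axis from 0) of BCL6, SMAD3, MYB, KLRD1, PRF1 and IFNG on the 8 siRNA arrays, each siRNA group left of its control; circles are arrays numbered 1, squares arrays numbered 2, and lines are group means. SMAD3 is higher with either siRNA than with its control, and IFNG with EZH2 siRNA differs between array 1 (141 units) and array 2 (72.8 units).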

How the data were processed

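The authors deposited signal intensity on a linear scale, with 28869 probe sets and 17 arrays. Per the labels' protocols biotinylated cDNA was made from 100 ng of total RNA. For the background correction, normalization and summary behind these values, no method was given in the sources used here. Intensities were used as deposited, after log2. Depth has no counterpart on arrays, and their number limits the precision.

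Probe sets with 1 symbol in the platform annotation (19310) were named, and symbols were set against RefSeq gene identifiers of GRCh38.p14, which changed 0. A filter at the 30th percentile of mean signal removed dim genes and always kept JAK3 and EZH2. Limma 3.58.1 in R 4.3.3 with data.table was used (lmFit, eBayes, two-sided, Benjamini-Hochberg over all genes, threshold 0.05). The 8 siRNA arrays formed a single fit with 3 residual degrees of freedom, in which the EZH2 pairs were a block because the titles tie them, and the 8 vector and full-length arrays formed another with 6. Deviations of same-numbered arrays from their group means correlated across genes with r = -0.0857 in the EZH2 arm. The fits were tested on simulated data.

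The members and lists were chosen with earlier results of these data known. All 10 members are named throughout; of each list, up to 3 called genes per direction, or the 3 with the smallest unadjusted p. Alternatives were quantile normalization, median centring, other filters, the mean of probe sets, limma's trend and robust settings, other blocks and arrays, and each array left out.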

Additional observations from a re-analysis of the deposited data

Results flagged for a closer look

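GATA3 was the only member for which every full-length EZH2 plasmid array of set 1 lay on one side of its vector and every array of set 2 on the other. The mean log2 difference from the vector was 0.239 in set 1 and -0.188 in set 2, with 3 plasmid arrays and 1 vector array in each. The difference between the sets was not tested, and 1 vector array fixes the sign of all 3 differences in its set. The vectors had 97.0 units in set 1 and 160 units in set 2.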

How the results depend on the processing

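The 10 changes per comparison kept their direction under most alternatives, and every change of direction is given below. The number of members called after EZH2 siRNA was 0 after quantile normalization, median centring, no filter on low signal, the mean of all probe sets, or the other ZEB2 probe set (log2 change -0.0249, chosen after seeing the data). It was also 0 with no replicate block, where 20 genes in all were called, against 136 with the pairs as a block. After JAK3 siRNA GATA3 and TOX were called in the fit of the 4 JAK3 arm arrays. The share of all genes called in that fit is not given here, so this cannot be read as a result about the members. A replicate block in the JAK3 arm too, and the set as a block for the plasmids, left 0 members called. Deviations of same-numbered arrays correlated with r = 0.151 in the JAK3 arm and 0.842 in the plasmid sets.

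Quantile normalization turned TBX21 (-0.00486) and ZEB2 (0.0248) after JAK3 siRNA, EOMES (0.00302) and RUNX3 (0.0389) after EZH2 siRNA, and the difference between arms for ID2 (-0.0269). Median centring turned EOMES (0.00668), PRDM1 (0.000545) and ZEB2 (0.00736) with plasmids. The mean of probe sets turned ZEB2 after JAK3 siRNA (0.087). The interquartile range as a covariate, chosen after seeing the data, turned GATA3 (-0.0292) and PRDM1 (0.0162) with plasmids. The cause was not tested.

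With each array left out in turn, 0 to 2 members were called after JAK3 siRNA, 0 to 3 after EZH2 siRNA and 0 to 2 for the difference between arms. The share of all genes called in each of those fits is not given here, so the counts cannot be read as a result about the members. After JAK3 siRNA the log2 change ran from -0.0809 to 0.10 for TBX21, -0.0107 to 0.10 for ETS1 and -0.10 to 0.10 for ZEB2. After EZH2 siRNA it ran from -0.11 to 0.10 for EOMES, -0.15 to 0.12 for RUNX3, -0.28 to 0.74 for ID2 and -0.31 to 0.11 for TOX. The difference between arms ran from -0.17 to 0.0112 for TBX21, -0.0618 to 0.21 for RUNX3, -0.51 to 0.51 for ID2, -0.38 to 0.0402 for TOX and -0.0636 to 0.14 for PRDM1. With plasmids it ran from -0.38 to 0.22 for TBX21, -0.0259 to 0.0195 for EOMES, -0.27 to 0.11 for ETS1, -0.0292 to 0.30 for ID2, -0.20 to 0.55 for NFIL3, -0.59 to 0.43 for TOX, -0.34 to 0.39 for GATA3, -0.21 to 0.19 for PRDM1 and -0.15 to 0.14 for ZEB2. With 2 arrays a group, 1 cell line and deposited values of unstated normalization, small changes cannot be resolved.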
